A study of Mus musculus with 6 samples.

Results

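The Skint genes are a family of 10 immunoglobulin-like genes followed here through mouse thyroid lobes with and without the forkhead transcription factor Foxe1. The family was taken as the listed genes Skint1 to Skint10, which lie side by side on chromosome 4. The genes were chosen by family name, but the family was selected on the knockout minus control values of this very comparison, among them a large rise of Skint6, so the differences of its members are given as a description. All 10 were measured, each by 1 probe set, among 22206 probe sets that cover 19505 named genes. Thyroid RNA came from 3 Foxe1flox/flox/Cre mice, called knockouts here, and from 3 Cre control mice that carry the recombinase without the floxed gene. All 6 mice were of a C57BL/6J background, received tamoxifen at 0.05 g/kg on 5 consecutive days at an age of 6 to 8 weeks, and were sampled 2 weeks after treatment, with 1 lobe and 1 array per animal. Which promoter drives Cre is not given in the labels. The comparison asks how the thyroid's transcripts differ once Foxe1 has been deleted in the adult.

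Skint proteins carry extracellular immunoglobulin-like domains and membrane-spanning segments, and are distant relatives of the butyrophilins, which regulate T cells. The founding gene, Skint1, is expressed by thymic epithelial cells and by keratinocytes of the epidermis. It is needed in the thymus for the maturation of dendritic epidermal T cells, the gamma-delta T cells that settle in mouse skin. The family is known from skin and thymus, not from the follicular cells that make thyroid hormone.

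The cluster also holds members with closely alike start regions. Skint6 and Skint5 are neighbours on the same strand. The 250 bases before their RefSeq starts (assembly GRCm38.p6) could be laid side by side without a gap, with 222 identical bases, or 88.8%. They are shown because the former had the largest difference of the family and the latter a small one. Each is written 5′ to 3′ on the reverse strand, from chr4:113286974-113287223 for Skint6 and chr4:113999504-113999753 for Skint5, and capitals mark the 28 positions at which they differ.
Skint6: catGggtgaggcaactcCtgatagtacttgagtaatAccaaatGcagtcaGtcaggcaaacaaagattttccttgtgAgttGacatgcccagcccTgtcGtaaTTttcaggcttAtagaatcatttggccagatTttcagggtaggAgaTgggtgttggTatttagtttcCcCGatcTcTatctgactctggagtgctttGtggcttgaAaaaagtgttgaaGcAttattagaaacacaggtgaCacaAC
Skint5: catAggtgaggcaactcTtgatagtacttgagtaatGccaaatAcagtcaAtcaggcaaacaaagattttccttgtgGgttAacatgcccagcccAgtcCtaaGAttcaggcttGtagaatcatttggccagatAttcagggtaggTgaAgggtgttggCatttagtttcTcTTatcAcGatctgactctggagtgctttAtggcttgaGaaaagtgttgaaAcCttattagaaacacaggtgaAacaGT

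The 6 arrays were alike in overall brightness. Array medians lay between 5.62 and 5.69 on the log2 scale, and any pair of arrays correlated at 0.97 to 0.99. With 3 arrays a group, precision is limited throughout. Foxe1 read 7.60, 7.19 and 7.04 on the control arrays against 3.33, 2.88 and 3.04 on the knockout arrays, lower in every knockout as the labels state. Control 1 and knockout 3 stood apart in lacking Y-linked signal. No detection calls were used. As a working background, the 95th percentile of 1414 probe sets for olfactory and vomeronasal receptors, genes mostly silent outside sensory tissue, was taken on each array. It lay between 4.35 and 4.52, and is called the chemoreceptor level. Of the 13 measured follicular markers 10 read above it on all 6 arrays and 1, Slc26a4, on none, beside abundant squamous, airway and muscle transcripts.

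Along the chromosome the family is ordered Skint8, Skint7, Skint1, Skint4, Skint3, Skint9, Skint2, Skint10, Skint6 and Skint5. The first 5 genes of this order and Skint6 read higher on all 3 knockout arrays than on any control, and the remaining 4 overlapped between the groups. Differences of the 6 separated members ran from 1.04 to 2.93 on the log2 scale, and those of the other 4 from -0.01 to 0.47. Over all probe sets 9.28% had every knockout above every control, and 2.17% did so with a difference of at least 1. In the limma fit over all probe sets, 3 of the 10 members passed an adjusted p of 0.05, all higher in the knockout, where 0.252% of all probe sets were called higher. They were Skint1, Skint3 and Skint6. The family's median difference was 1.04, beside -0.02 over all probe sets. Since this contrast was in view when the family was chosen, these counts describe it and support nothing further. They also depended on every array: without control 1 the call remained for Skint3, without knockout 2 for Skint6, and without any other array for none of the 10. In whole-lobe RNA, more cells of a type and more RNA per cell cannot be told apart.

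**Figure D1:**
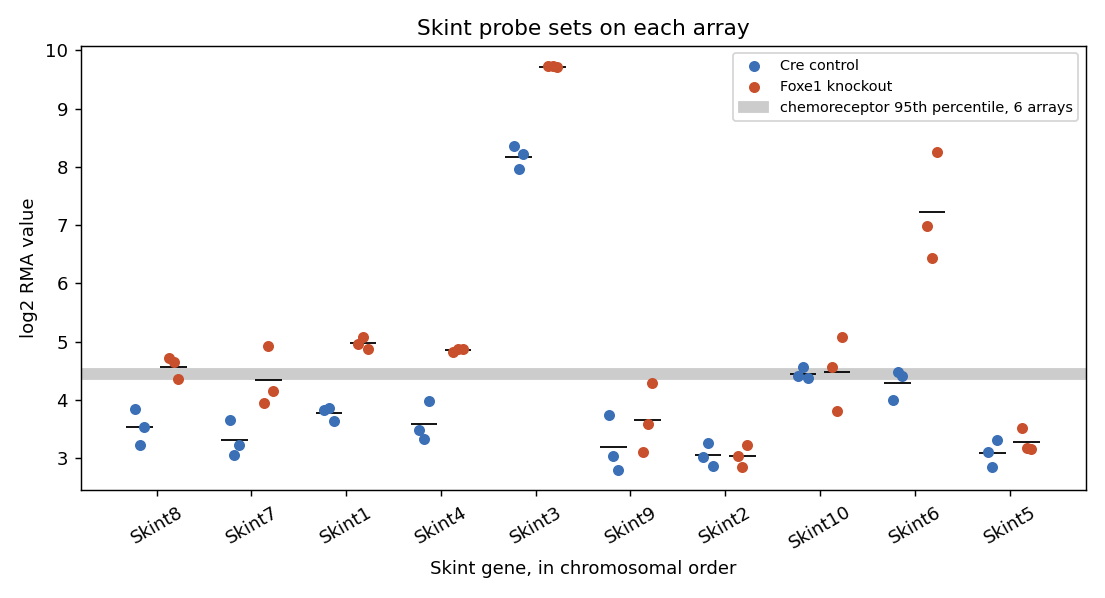
Log2 RMA value (vertical axis) of each Skint probe set on the 3 Cre control arrays (blue) and the 3 Foxe1 knockout arrays (red), with genes in chromosomal order (horizontal axis). Short lines are group means and the grey band spans the chemoreceptor level of the 6 arrays, 4.35 to 4.52. Knockout and control points are separate for Skint8, Skint7, Skint1, Skint4, Skint3 and Skint6.

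Skint3 was the one member that read above the chemoreceptor level on every array of both groups. Its probe set (TC0400001196.mm.2) read 8.35, 7.96 and 8.22 on the control arrays against 9.73, 9.73 and 9.71 on the knockout arrays. The knockout readings were nearly equal and all lay more than a log2 unit above the highest control. The means were 8.18 ± 0.20 and 9.72 ± 0.01 (SD, n = 3 each), a rise of 1.55 (SE 0.18), or 2.92-fold. Among the probe sets of its own array it stood at percentiles of 68.3 to 72.1 in controls and of 81.2 to 81.3 in knockouts. Leaving out 1 array at a time gave differences between 1.44 and 1.63.

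Skint6 had the largest difference of the family. Its probe set (TC0400003293.mm.2) read 3.99, 4.47 and 4.41 on the control arrays against 6.98, 6.43 and 8.25 on the knockout arrays. Knockout 3 stood well above the other knockouts, and the lowest knockout still lay clear of every control. Group means were 4.29 ± 0.26 and 7.22 ± 0.93 (SD, n = 3 each), so Skint6 rose by 2.93 (SE 0.41), or 7.62-fold. In the controls 1 of 3 arrays read above the chemoreceptor level, against 3 of 3 in the knockouts. A control reading so close to background may hide a lower level, so the fold may be understated. The difference was 2.42 without knockout 3 and up to 3.33 when another array was left out.

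Skint1, the member needed for skin gamma-delta T cells, read 3.83, 3.85 and 3.63 on the control arrays against 4.96, 5.07 and 4.88 on the knockout arrays (probe set TC0400001194.mm.2). Both groups were narrow and well apart. Group means were 3.77 ± 0.12 and 4.97 ± 0.10 (SD, n = 3 each), so Skint1 rose by 1.20 (SE 0.18). No control array and all 3 knockout arrays lay above the chemoreceptor level, so this difference may be understated as well. Leaving out 1 array at a time gave 1.13 to 1.25.

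Skint4 had the same shape without passing the threshold. It read 3.48, 3.32 and 3.97 on the control arrays against 4.82, 4.87 and 4.88 on the knockout arrays, a difference of 1.27 (SE 0.21). Control 3 was the highest control, and the knockouts differed among themselves by less than 0.1. Like Skint1, it was above the chemoreceptor level on no control and on all 3 knockouts.

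Skint8 and Skint7, the first genes of the cluster, were at the edge of the background. Skint8 read 3.84, 3.23 and 3.53 on the control arrays against 4.72, 4.64 and 4.35 on the knockout arrays, a difference of 1.04 (SE 0.22). Skint7 read 3.65, 3.05 and 3.22 on the control arrays against 3.95, 4.93 and 4.15 on the knockout arrays, also a difference of 1.04 (SE 0.29). For Skint7 the groups were separated by a narrow gap, between control 1 and knockout 1. Of the knockout arrays, 2 lay above the chemoreceptor level for Skint8 and 1 for Skint7. Of all probe sets, 7791 lay above that level on no control array. Of these, 0.295%, or 23, had every knockout above every control and a mean difference of at least 1. Skint8, Skint7, Skint1 and Skint4 are 4 of these 23. The family was chosen on these differences, so this count is a description.

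The other 4 members showed no separation. Skint9 read 3.73, 3.03 and 2.79 on the control arrays against 3.11, 3.58 and 4.28 on the knockout arrays, a difference of 0.47 with a 95% interval from -0.30 to 1.25. Its readings were spread widely within both groups. Skint2 read 3.01, 3.26 and 2.87 against 3.04, 2.85 and 3.23, and its interval ran from -0.45 to 0.44. Skint10 read 4.41, 4.56 and 4.38 against 4.56, 3.81 and 5.08, with an interval from -0.65 to 0.72. The controls of Skint10 were close together, and its knockouts lay on both sides of them. Skint5 read 3.11, 2.85 and 3.30 against 3.52, 3.17 and 3.15, with an interval from -0.27 to 0.66. Skint9, Skint2 and Skint5 were below the chemoreceptor level on all 6 arrays, where a change could go unseen. A difference of 1 lies outside the intervals of Skint2, Skint10 and Skint5 on this scale, and inside that of Skint9.

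**Figure D2:**
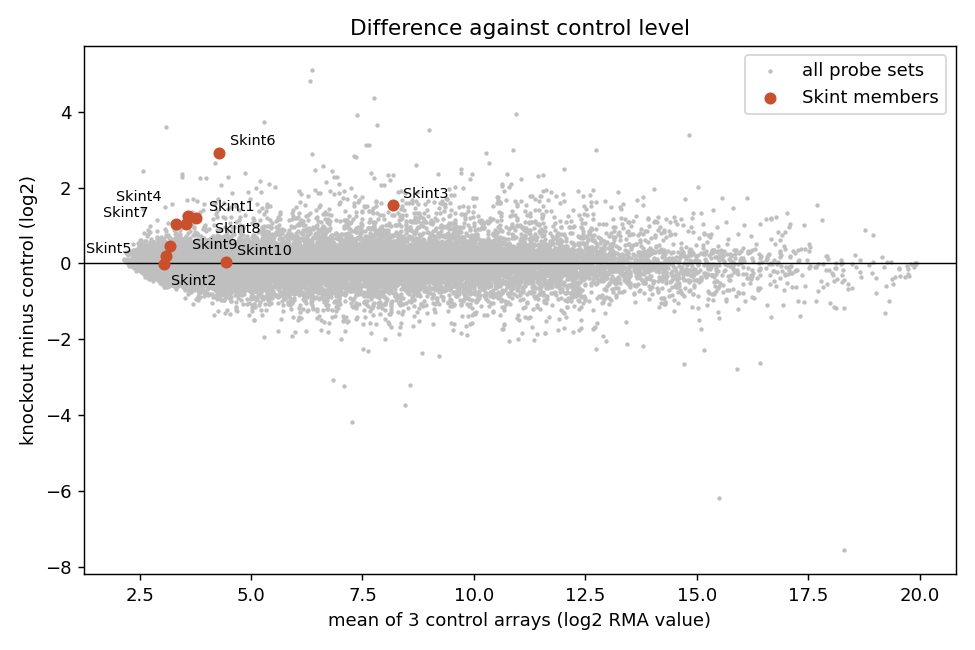
Knockout minus control (vertical axis, log2) against the mean of the 3 control arrays (horizontal axis, log2 RMA value) for all 22206 probe sets (grey) and the 10 Skint members (red). Apart from Skint3, the members sit at control means of 4.45 or less, and differences of about 0 and of more than 1 both occur there.

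Of the 4 overlapping members, 3 had the lowest control means of the family. Control means of the 4 overlapping members were 3.18 for Skint9, 3.05 for Skint2, 4.45 for Skint10 and 3.09 for Skint5. Those of the dim separated members were 3.53 for Skint8, 3.31 for Skint7, 3.77 for Skint1, 3.59 for Skint4 and 4.29 for Skint6. Skint9, Skint2 and Skint5 thus had lower control means than any separated member, while Skint10, with a difference of 0.03, was the brightest of these 9 in the controls. A probe set's brightness also depends on its probes, so such levels do not rank the genes by transcript amount.

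Members varied from mouse to mouse in different ways. The mean over the 6 separated members was 4.52, 4.31 and 4.50 on the control arrays against 5.86, 5.95 and 6.04 on the knockout arrays. Within the knockouts, knockout 3 was the highest for Skint6, by 1.03 over the group mean, yet the lowest for Skint8 and Skint1, at -0.22 and -0.09 from their group means. It was also the highest for Skint9 and Skint10, at 0.62 and 0.60 from theirs. As a measure of likeness, the root mean square distance between profiles over the 6 arrays was computed after each probe set's own mean was removed. The closest pair was Skint8 and Skint1, at 0.23, followed by Skint4 and Skint3, also at 0.23. Skint6 was nearest to Skint3, at 0.92, and lay 1.50 from Skint5, whose start region is printed beside its own above.

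Apart from Skint6, the separated members follow one another at the start of the cluster. Whether they are grouped by position was not tested. Skint8, Skint7, Skint1, Skint4 and Skint3 follow one another on the forward strand with no other measured named gene between them. Next come Skint9, Skint2 and Skint10, all overlapping between the groups, then Skint6, and then Skint5. Skint9, Skint2 and Skint5 were below the chemoreceptor level on every array, where a change could go unseen. The nearest measured protein-coding gene before Skint8 is Slc5a9, a sodium-dependent sugar transporter. Slc5a9 read 6.92, 8.24 and 8.25 on the control arrays against 9.33, 9.44 and 9.60 on the knockout arrays. Control 1 was far below the other controls, and all knockouts lay above all controls. Its difference was 1.65 (SE 0.35, limma adjusted p = 0.098), which did not pass the threshold.

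Beyond Slc5a9 the neighbours differed little. Of the 10 neighbours, 5 measured genes on each side, 0 passed the limma threshold, where 0.338% of all probe sets did, and 1, Slc5a9, had an unadjusted p under 0.05, as 12.7% of all probe sets did. Their median difference was -0.0017, with 5 positive and 5 negative. Before Slc5a9, Spata6 was at -0.15, Bend5 at 0.30, Agbl4 at -0.47 and Elavl4 at -0.14. After Skint5, the family member Skint11, which is not among the 10, was at -0.10, with 3.85, 3.23 and 3.58 on the control arrays against 3.09, 4.14 and 3.14 on the knockout arrays. Trabd2b was at -0.40, the forkhead genes Foxd2 and Foxe3 at 0.10 and 0.09, and Cmpk1, a nucleotide kinase, at 0.44. Foxd2 had every knockout above every control, by a small amount and below the chemoreceptor level. Foxe1 itself lies on chromosome 4 too, with 359 protein-coding genes of the RefSeq table between it and the cluster.

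**Figure D3:**
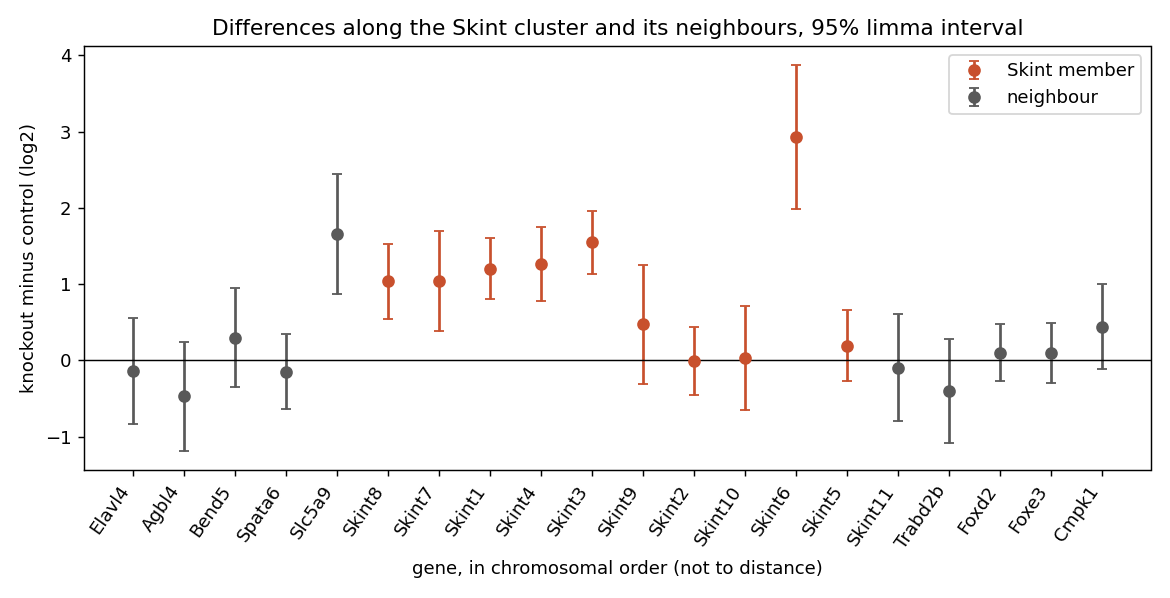
Knockout minus control (vertical axis, log2) with its 95% limma interval for the 10 Skint members (red) and their 10 nearest measured neighbours (grey), in chromosomal order and not to distance (horizontal axis). Slc5a9 and the 5 Skint genes next to it form a run between 1.04 and 1.65, and Skint6 stands alone at 2.93 between Skint10 at 0.03 and Skint5 at 0.19.

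Members with like start regions differed alike in some pairs and not in others. RefSeq windows from 250 bases before to 50 after a start were found for all 10 members, 11 windows in all, as Skint4 has 2 starts. Of 54 pairs of windows from different members, 11 could be aligned over at least 100 bases. Skint6 and Skint5 were the most alike of these, with 269 of 300 bases identical, or 89.7%. Their windows add 50 bases after the start to the sequences printed above. The differences of Skint6 and Skint5 were 2.93 and 0.19, with intervals of 1.99 to 3.87 and -0.27 to 0.66. Skint8 and Skint7, with 84.8% over 132 aligned bases, both differed by 1.04. Skint3 and the second start of Skint4, with 78.5% over 247 bases, differed by 1.55 and 1.27. Skint9 and Skint10, with 82.1% over 168 bases, were at 0.47 and 0.03. The forkhead core TAAACA, or TGTTTA on the other strand, occurred in 2 of the 11 windows, those of Skint9 and Skint2, and in 13.4% of all 32851 windows of the same length. Only this form of the core was searched, so a window without it is not shown to lack a forkhead site. Probe sequences were not used here, and binding of one member's transcript to another member's probes was not tested.

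**Figure D4:**
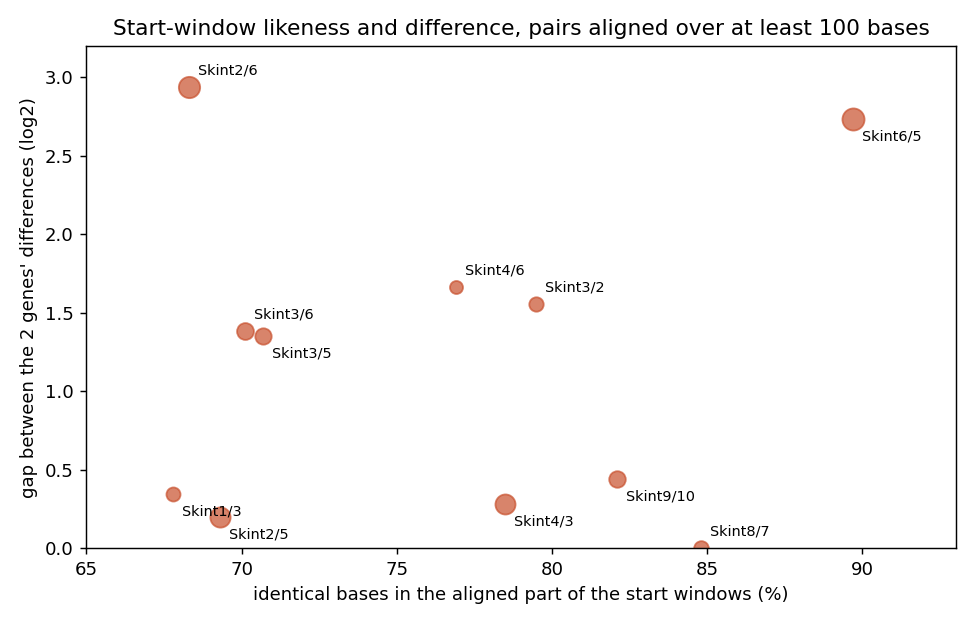
Gap between the knockout minus control differences of 2 Skint genes (vertical axis, log2) against the percentage of identical bases in the aligned part of their start windows (horizontal axis), for the 11 pairs aligned over at least 100 bases. Larger points are longer alignments. Skint6 and Skint5, at 89.7%, have one of the largest gaps, and Skint8 and Skint7, at 84.8%, the smallest.

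No relative of the family was called. Of 10 genes of the butyrophilin family, 0 passed the limma threshold, 0 had an unadjusted p under 0.05, and the median difference was -0.05. Of these 10, 0 read above the chemoreceptor level on all 6 arrays and 8 on none, where a change could go unseen. The 3 with the smallest p were Mog at 0.29, Btnl2 at -0.27 and Btnl6 at 0.14, all below the chemoreceptor level on every array. Mog, a myelin protein gene, was the one with every knockout above every control, as 9.28% of all probe sets had.

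No T cell gene was called in either direction. Of the 11 measured genes of the gamma-delta T cell list, 0 passed the limma threshold and 0 had an unadjusted p under 0.05, with a median difference of 0.03. Those with the smallest p were Sox13 at 0.37, Cd163l1 at 0.38 and Il2rb at -0.34. Of the 11, 1, Sox13, read above the chemoreceptor level on all 6 arrays and 6 on none, where a change could go unseen. The receptor genes Trdc, Trdv4, Tcrg-V5, Tcrg-C1 and Tcrg-C2 were not matched to a named probe set. Of 13 measured thymocyte genes 0 passed and 2 had an unadjusted p under 0.05, as 12.7% of all probe sets did. These 2 were Bcl11b at 0.97 and Satb1 at -0.73, both of which epithelia and other cells express too. The median difference of the thymocyte list was -0.22, and -0.04 without control 1. Cd3d, a subunit of the T cell receptor complex, was at -0.30. Of the 13 thymocyte genes, Cd4, Satb1, Bcl11b and Arpp21 read above the chemoreceptor level on all 6 arrays, Themis on 4 and Cd3e on 1. The other 7, among them Rag2, Ptcra, Dntt and Cd8a, read above it on none. Of the epithelial partners of skin gamma-delta T cells, 5 were measured and 0 passed, with 1 at an unadjusted p under 0.05. That was the cytokine gene Il7, at -1.01, while Cxadr was at -0.31 and Il15 at 0.55 (median difference of the list 0.12, and -0.18 without knockout 3).

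Thymic epithelium, the other known site of the family, gave no called gene. Of 9 measured markers 4 were positive and 5 negative, with a median difference of -0.07 (0.13 without control 3). An unadjusted p under 0.05 was found for 2 of them, and for 12.7% of all probe sets. Of the 9, Foxn1, Ccl25, Dll4 and Ly75 read above the chemoreceptor level on all 6 arrays, Tbata on 1, and the remaining 4 on none. Those 4 were Aire, Psmb11, Prss16 and Fezf2, which are genes of thymic epithelial function. Foxn1, which thymic epithelium shares with hair follicles and epidermis, read 6.48 on each control array against 7.03, 8.00 and 7.19 on the knockout arrays, which is 0.93 higher on average (limma adjusted p = 0.182). Ly75 was at 0.70 and Tbata at -0.65.

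Transcripts of stratified epithelium, where keratinocytes express the family, were abundant in both groups. Of 20 measured markers of differentiated stratified epithelium, 11 had every knockout above every control and 3 every knockout below. Over all probe sets these shares were 9.28% and 8.78%. The median difference of the 20 markers was 0.96, and 0.53 without control 1. The keratin gene Krt76 was the one that passed the threshold, downward, as 0.0856% of all probe sets did. It read 7.78, 8.16 and 9.77 on the control arrays against 5.25, 5.59 and 5.25 on the knockout arrays, a change of -3.21 (SE 0.45, limma adjusted p = 0.0324). Named after their values were seen, the cornified envelope genes Sprr1b and Lor differed by 3.13 and 1.62 and the desmosomal cadherin gene Dsc1 by 2.02, with limma adjusted p of 0.0624, 0.0665 and 0.0815. Besides Krt76, the negative markers were Krt1 at -1.06, Krt10 at -1.26, Krt16 at -0.97 and Ivl at -0.25. Krt1 and Krt10 had every knockout below every control. Of 9 basal keratinocyte markers 0 passed and 2 had an unadjusted p under 0.05, as 12.7% of all probe sets did. Their median was 0.17, which turned to -0.21 without knockout 3 and to -0.03 without control 2. The desmosomal genes Dsc3 and Dsg3 were at 1.10 and 0.77 and the keratin gene Krt14 at -0.45.

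The levels of squamous markers on each array are set beside those of the Skint genes. The mean over the 20 differentiated markers, which pools 15 positive with 5 negative differences, was 11.81, 12.87 and 12.86 on the control arrays against 12.85, 12.91 and 13.30 on the knockout arrays. Control 1 was the lowest array and knockout 3 the highest. Knockout 3 was also the highest for the mean of the 6 separated Skint members, at 6.04, with Skint6 at 8.25 on it. Among the knockouts it was the lowest for Skint8, Skint1 and Skint3, at 4.35, 4.88 and 9.71. For Skint4 it was the highest, at 4.88 against 4.82 and 4.87, and Skint7 lay between. Control 1 was the highest control for the Skint mean, at 4.52 against 4.31 and 4.50. The 6 members were picked for lying apart between the groups. Dsc1, one of the 11 markers with every knockout above every control, read 14.07, 15.79 and 15.22 on the control arrays against 16.86, 16.90 and 17.39 on the knockout arrays, so that each group stood apart for it too. The part of squamous transcripts in the Skint differences was not tested. Control 1 and knockout 3, which lack Y-linked signal, were also left out together, a setting chosen after seeing the data. Since they were the lowest and the highest array for the squamous mean, a smaller mean squamous difference without them was fixed in advance. The median difference of the differentiated markers was then 0.35, and the family's median was 1.24. Skint3 and Skint6 were at 1.64 and 2.27. These values are no test of the squamous part in the Skint differences. No member passed the limma threshold with these 4 arrays. An unadjusted p under 0.05 was found there for 6 members and for 2357 of all 22206 probe sets.

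**Figure D5:**
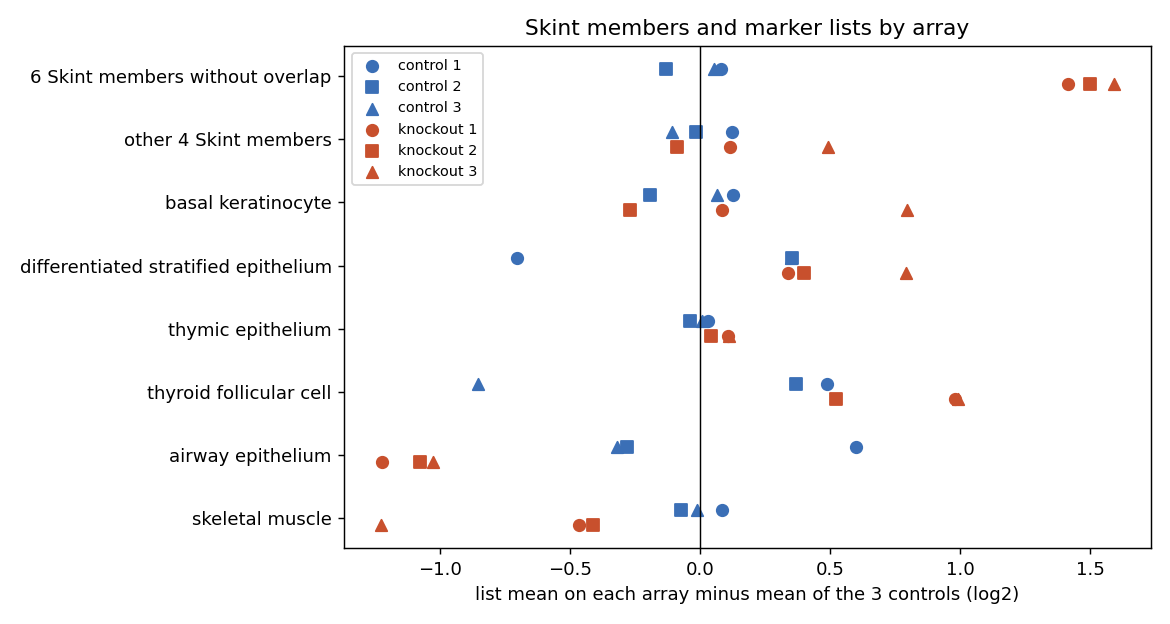
Mean of each gene list on each array minus the mean of the 3 controls (horizontal axis, log2), for the separated and overlapping Skint members and 6 marker lists (vertical axis). Blue marks controls, red knockouts, and shapes number the mice. The 6 separated Skint members were picked for lying apart between the groups, and the list of differentiated stratified epithelium pools positive with negative differences, with the points of controls 2 and 3 coinciding beside knockouts 1 and 2.

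Markers of other tissues taken with the lobe had lower means in the knockouts. All 5 measured airway markers and all 8 skeletal muscle markers had negative differences, with medians of -1.17 and -0.48, which came to -0.75 for airway without control 1 and to -0.28 for muscle without knockout 3. All 3 measured parathyroid markers were negative too, with a median of -6.19 (-3.98 without knockout 1) and wide spread among the knockouts. The 1 measured C cell marker was at -0.75, and at -0.36 without knockout 3. Of these 4 lists 0 genes passed the limma threshold, and 10 had an unadjusted p under 0.05, as 12.7% of all probe sets did. Of 13 follicular cell markers 11 were positive (median 0.86), with Hhex called higher and Foxe1 called lower. Without control 3 their median was 0.37, with 9 positive. Their part in the Skint differences was not tested.

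The named genes whose profiles lay closest to the called members were found over the same 6 arrays by the root mean square distance. Unnamed probe sets and Gm, Rik, LOC and Skint names were left out of this search. Nearest to Skint6 were the hair keratin gene Krt32 (0.31), Dkkl1 (0.32), the melanosome glycoprotein gene Gpnmb (0.39), Slurp2, which encodes a small secreted protein of keratinocytes (0.39), and the kallikrein gene Klk1 (0.46). Krt32 read 6.69, 7.95 and 7.27 on the control arrays against 9.70, 9.17 and 11.54 on the knockout arrays, with knockout 3 highest as for Skint6. Nearest to Skint1 were Serpinb7, a serine protease inhibitor gene (0.07), Lhfpl2 (0.10), Hacd2, an enzyme of fatty acid elongation (0.11), Myo5a, a myosin motor (0.14), and Sesn3 (0.15). Serpinb7 read 8.34, 8.49 and 8.10 on the control arrays against 9.49, 9.47 and 9.42 on the knockout arrays. Nearest to Skint3 were the nicotinic receptor gene Chrnb4 (0.10), Acp7 (0.15), Afap1l2 (0.17), Hdhd3 (0.17) and the adhesion receptor gene Adgrl2 (0.18). Closeness here means a like shift between the groups and a like order of the mice, over 6 arrays that were also used to call the members.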

How the data were processed

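The deposited table holds the authors' log2 value for each probe set. The submitters' processing notes name RMA and Affymetrix Expression Console, with no version, settings or annotation. RMA equalises the arrays and compresses differences near background. That values are on a log2 scale was inferred from their range. Per the labels, 250 ng of total RNA with an integrity number of at least 7 was used from each lobe. Nothing says which animals share a litter or cage.

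Of 22206 probe sets, 19572 carried 1 symbol (platform annotation of 2019, all matched by gene identifier to RefSeq GRCm38.p6), 2634 none and 0 several. The brightest probe set stood for a gene. The build behind the array is not named, so array genes are given by order only, and coordinates belong to RefSeq windows.

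All probe sets were fitted with limma 3.58.1 (R 4.3.3, lmFit and eBayes, no replicate block), two-sided, with Benjamini-Hochberg adjustment and called at 0.05. Each difference is knockout minus control. The step was tested on simulated data. Windows were aligned locally with Biopython 1.88 in Python 3.11.15 (match 2, mismatch -3, gap opening -5, extension -2). Figures used matplotlib 3.10.9.

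Members, lists and tests were chosen with earlier results of these data known. Named genes include all Skint members, all neighbours, and called members of each list or otherwise up to 3 with the smallest p. They also include the 5 nearest profiles of each called member, with unnamed probe sets and Gm, Rik, LOC and Skint names left out. Markers of airway, muscle, parathyroid and C cells are given as counts only. Same-numbered arrays did not deviate together (correlations of -0.01, 0.08 and 0.02), so the numbers were not taken as pairs.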

Additional observations from a re-analysis of the deposited data

How the results depend on the processing

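The 6 separated Skint members kept their direction in every setting that tested them, as separated groups must when 1 array is left out. Of the 157 member differences under other settings 156 moved by less than the spread between replicates. The exception was Skint8, at 1.30 with only the 4 arrays that have Y-linked signal. These counts were largely fixed in advance and are no test of stability. Several settings change the error or the set of probe sets and leave each difference as it was. Leaving out 1 of 3 arrays cannot move a difference by as much as the spread between replicates. The differences of Skint2 and Skint10, near 0, changed sign, running from -0.10 to 0.10 and from -0.27 to 0.37 when 1 array was left out. The calls depended more on the setting. With 75 probe sets and 3 Skint members called as reported, leaving out 1 array gave between 2 and 43 probe sets and between 0 and 1 members. An ordinary t statistic called 0 probe sets and 0 members, with 2208 and 6 at an unadjusted p under 0.05. The 4 arrays with Y-linked signal, a setting chosen after seeing the data, gave 6 probe sets and 0 members. Sex as a covariate, also chosen after seeing the data, gave 92 and 3. Robust fitting with a variance trend called 118 probe sets and 3 members. Skint4 was called too after renewed quantile normalization, median centring, array weights or the filter at the chemoreceptor level, each of which gave 4 members, and that filter left 5 members tested. The filter at the median level left 2 members, Skint3 and Skint6, both called, and no butyrophilin gene. With the replicate number as a block, 63 probe sets and 2 members, Skint3 and Skint6, were called. Butyrophilin genes and neighbours stayed at 0 calls in every limma setting that tested them. Averaging a gene's probe sets gives the same values, as each member has 1. Signal near background limits what can be seen for every member but Skint3.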
